A study of Mus musculus with 9 samples.

Results

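The chemokines Ccl3, Ccl4, Ccl5, Ccl9 and Xcl1 and the chemokine receptors Cxcr3, Cxcr4, Ccr2 and Cxcr6 were followed in mouse cytotoxic T lymphocytes (CTL) given an inhibitor of the kinase mTOR. These 9 genes, of 18193 named on the array, were taken as every probe set whose array annotation carried one of the symbols, 14 probe sets in all. Of the 9 genes, 7 had a signal high enough to be tested, among 13278 tested genes. The CTL were CD8 T cells of P14 T cell receptor transgenic mice, labelled wild type in genotype, so that all 3 groups carried the transgene. Splenocytes were stimulated with the peptide gp33-41, IL-2 and IL-12 for 48 h, kept in culture for 96 h more and taken on day 6. During the last 48 h they received KU-0063794 at 1 uM, rapamycin at 20 nM, or the solvent DMSO, with 3 arrays in each group. Each spleen was 1 biological replicate and was divided over the 3 treatments, so arrays with the same number share an animal. Age and sex of the mice are not among the labels used here.

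Chemokines are small secreted proteins that bind G protein-coupled receptors on leukocytes and direct their migration. Effector CD8 T cells are known to secrete CCL3, CCL4, CCL5 and XCL1, which draw in other immune cells, and to carry receptors such as CXCR3, CXCR6 and CCR2 that serve entry into inflamed tissue. Receptors such as CXCR4 and CCR7 serve bone marrow and lymph node positioning. Rapamycin, bound to FKBP12, inhibits mainly mTOR complex 1, and KU-0063794 inhibits the mTOR kinase in both of its complexes.

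The promoter windows of Cxcr3, Cxcr4 and Cxcr6 are shown because the calls of these 3 receptors depended on comparing arrays of the same spleen: Cxcr3 and Cxcr4 were higher and Cxcr6 was lower with both inhibitors. The sequences are from RefSeq (GRCm38.p6) and run 5′ to 3′ along the gene's strand, from 250 bases before to 50 bases after the gene's start. They lie at chrX:101734098-101734397 (− strand) for Cxcr3, chr1:128592250-128592549 (− strand) for Cxcr4 and chr9:123806227-123806526 (+ strand) for Cxcr6. Capitals mark matches, on either strand, to the motif letters named after the sequences.
Cxcr3: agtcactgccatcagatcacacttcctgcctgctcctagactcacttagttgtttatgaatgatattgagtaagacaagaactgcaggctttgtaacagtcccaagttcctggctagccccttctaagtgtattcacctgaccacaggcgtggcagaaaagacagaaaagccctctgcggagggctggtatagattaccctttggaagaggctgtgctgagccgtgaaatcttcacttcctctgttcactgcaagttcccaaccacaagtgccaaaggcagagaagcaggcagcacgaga
Cxcr4: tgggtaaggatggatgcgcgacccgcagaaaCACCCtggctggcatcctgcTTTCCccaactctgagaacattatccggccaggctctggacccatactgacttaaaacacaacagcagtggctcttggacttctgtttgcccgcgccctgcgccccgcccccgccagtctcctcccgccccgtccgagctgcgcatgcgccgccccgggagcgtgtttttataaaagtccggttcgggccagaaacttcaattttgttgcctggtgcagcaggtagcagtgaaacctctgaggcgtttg
Cxcr6: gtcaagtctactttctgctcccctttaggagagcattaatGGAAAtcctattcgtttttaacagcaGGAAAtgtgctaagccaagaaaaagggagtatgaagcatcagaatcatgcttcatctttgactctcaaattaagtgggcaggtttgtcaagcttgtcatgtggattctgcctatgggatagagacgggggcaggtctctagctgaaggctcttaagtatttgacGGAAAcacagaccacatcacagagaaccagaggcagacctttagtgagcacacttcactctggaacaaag
The Cxcr3 window held no match to any of the 6 motifs searched. The Cxcr4 window held 1 NFAT core (GGAAA, here as its reverse complement TTTCC) and 1 KLF motif (CACCC). The Cxcr6 window held 3 NFAT cores and none of the other motifs. These short motifs are common: among 32851 RefSeq windows of this length, 61.3% held GGAAA and 57.5% held CACCC. RefSeq windows matched 7 of the 9 genes, and of these GGAAA was in 6 and CACCC in 3. The AP-1 motif TGANTCA, in 7.81% of all windows, was in that of Ccl9, and the T-box motif GGTGTGA, in 3.98% of all windows, was in that of Xcl1. None of the 7 windows held the forkhead motif GTAAACA (3.65% of all windows) or the kappa B motif (20.7%). A match shows only that the letters are present.

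Signals are log2 values per probe set, and a probe set's level can be set against itself on other arrays but not against another probe set. A background level of 1.30 log2 was taken as the 95th percentile of 30 genes restricted to other tissues. The group means of 9 of 9 T cell markers, Cd8a, Cd8b1 and the Cd3 chains among them, lay above background in every group. None of these was called without the spleen in the fit. With the spleen as a replicate block 2 of 9 were called with each inhibitor. The share of all genes was 12.4% with KU-0063794 and 11.8% with rapamycin. Cd2 was higher with both (limma adjusted p = 0.0190 with KU-0063794 and 0.0424 with rapamycin). Cd8b1 was higher with rapamycin (limma adjusted p = 0.0215) and Cd247 lower with KU-0063794 (0.0327). Of the markers of other cells, 1 of 6 B cell genes (Cd79b), 1 of 14 myeloid genes (Csf1r), 1 of 4 CD4 T cell genes (Zbtb7b) and 0 of 2 NK cell genes lay above background. Summed over the 14 genes, the myeloid markers, of which Lyz2, Itgam, S100a8 and Mpo were below background in every group, gave 5.78 to 7.09 log2 with KU-0063794, 4.69 to 5.96 with rapamycin and 5.48 to 6.49 with DMSO. Of these, Cd68 was called lower with rapamycin (limma adjusted p = 0.0208), with means below background at 0.44 log2 with KU-0063794, 0.28 with rapamycin and 0.78 with DMSO. As to RNA quality, the actin control's 3′ probe set exceeded its 5′ probe set by 0.65 to 0.70 log2 with KU-0063794, 0.62 to 0.72 with rapamycin and 0.49 to 0.65 with DMSO, and the same difference for the Gapdh control was −0.22 to −0.03 with KU-0063794, −0.25 to −0.03 with rapamycin and −0.21 to 0.04 with DMSO. The array's B1 repeat control lay at 7.09 to 7.75 log2 with KU-0063794 and 6.75 to 7.52 with rapamycin, below the 7.96 to 8.65 with DMSO. The part of these measures in the results was not tested. Fewer cells of a type and less RNA per cell cannot be told apart in such bulk samples.

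Among the chemokines, Ccl4 fell with both inhibitors, Ccl5 rose with rapamycin, and Ccl3, Ccl9 and Xcl1 lay at or near background. Among the receptors, Cxcr3 was higher and Cxcr6 lower with both inhibitors within every spleen, Cxcr4 was higher within every spleen, and Ccr2 gave no call. Across the tested genes, 2 of 7 were called with rapamycin against DMSO (1 higher, 1 lower) by limma at a Benjamini-Hochberg adjusted p below 0.05, beside 4.44% of all genes. With KU-0063794 against DMSO 1 of 7 was called, beside 4.07% of all genes. With the spleen as a replicate block in the fit, the calls were 5 of 7 with rapamycin (3 higher, 2 lower), beside 11.8% of all genes, and 4 of 7 with KU-0063794 (2 higher, 2 lower), beside 12.4% of all genes. With the spleen as a random block they were 3 of 7 for each inhibitor, and the share of all genes called in that fit was not computed. The median log2 fold change of the 7 genes was −0.26 with KU-0063794 and −0.13 with rapamycin, beside 0.01 and −0.0043 over all genes tested. For both inhibitors this median is the value of Ccl3, whose group means were below background, so it does not show a shift of the 7 genes. Both comparisons use the same 3 DMSO arrays.

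**Figure D1:**
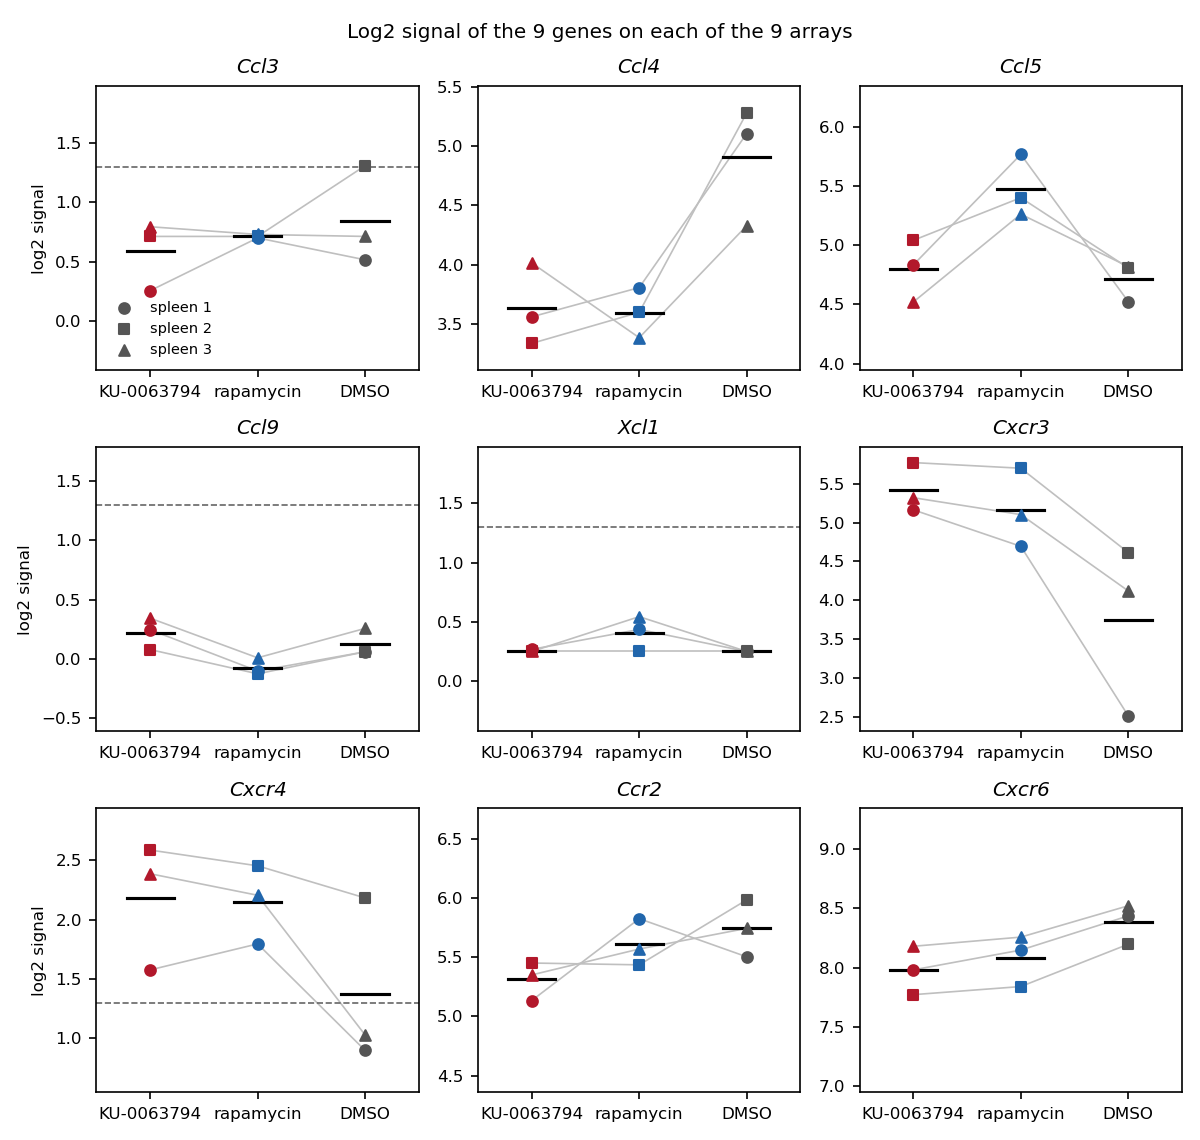
Log2 signal of each of the 9 genes on the 9 arrays, by treatment, with the probe set of highest mean for each gene. Points are arrays, their shape gives the spleen, grey lines join arrays of one spleen, black bars are group means and the dashed line is the background level of 1.30 log2. The y axes differ between panels, so only arrays within a panel can be compared. Ccl4 with DMSO lies above all 6 inhibitor arrays, Ccl5 with rapamycin above the other groups, and Cxcr3 is lowest with DMSO in every spleen.

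Ccl4 (probe set 1421578_at) encodes MIP-1 beta, a chemokine that draws lymphocytes and monocytes. Its signal was 3.56, 3.33 and 4.01 log2 in spleens 1, 2 and 3 with KU-0063794, 3.81, 3.60 and 3.38 with rapamycin, and 5.10, 5.28 and 4.33 with DMSO. Every inhibitor array lay below every DMSO array, and the nearest pair was KU-0063794 and DMSO of spleen 3. Group means were 3.64 ± 0.35 with KU-0063794, 3.60 ± 0.21 with rapamycin and 4.90 ± 0.51 with DMSO (SD, n = 3 each). Ccl4 fell 2.41-fold with KU-0063794 (log2 fold change −1.27, SE 0.25, limma adjusted p = 0.0278) and 2.48-fold with rapamycin (−1.31, SE 0.25, limma adjusted p = 0.0225). Within the 3 spleens the difference from DMSO was −1.55, −1.94 and −0.31 with KU-0063794 and −1.30, −1.68 and −0.94 with rapamycin. The KU-0063794 difference was thus smallest in spleen 3 and had the same direction in all 3. The fall kept its sign without any one array. It was no longer called for KU-0063794 without the DMSO array of spleen 1 or 2 or any KU-0063794 array, nor for rapamycin without the DMSO array of spleen 1 or 2 or any rapamycin array, the highest adjusted p being 0.109 and 0.0939. Leaving out any whole spleen also ended both Ccl4 calls in the fit without the block.

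Ccl5 (probe set 1418126_at) encodes RANTES, a chemokine that memory and effector CD8 T cells are known to make in quantity. Its signal was 4.83, 5.04 and 4.52 log2 in spleens 1, 2 and 3 with KU-0063794, 5.77, 5.40 and 5.26 with rapamycin, and 4.52, 4.81 and 4.82 with DMSO. All rapamycin arrays lay above all others, and the KU-0063794 and DMSO arrays overlapped. Means were 4.80 ± 0.26 with KU-0063794, 5.48 ± 0.26 with rapamycin and 4.72 ± 0.17 with DMSO (SD, n = 3 each). Ccl5 rose 1.69-fold with rapamycin (log2 fold change 0.76, SE 0.17, limma adjusted p = 0.0355), by 1.24, 0.59 and 0.44 within the 3 spleens. With KU-0063794 the change was 0.08 (95% interval −0.29 to 0.45, limma adjusted p = 0.858), higher in 2 of 3 spleens. The rapamycin call held without the KU-0063794 array of spleen 2 or 3 and was lost without any one of the other 7 arrays, with an adjusted p of up to 0.128 and a log2 fold change of 0.61 to 0.87. Leaving out any whole spleen also ended the rapamycin call. Both the Ccl4 and Ccl5 calls were lost when only the arrays of the 2 groups compared were fitted (adjusted p 0.0647 for Ccl4 and 0.0717 for Ccl5 with rapamycin, 0.0931 for Ccl4 with KU-0063794).

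The other 3 chemokines gave little signal. Ccl3 (probe set 1419561_at), which encodes MIP-1 alpha, was at 0.26, 0.71 and 0.80 log2 in spleens 1, 2 and 3 with KU-0063794, 0.70, 0.71 and 0.73 with rapamycin, and 0.52, 1.31 and 0.71 with DMSO. Only the DMSO array of spleen 2 reached the background level, so no fold is given. Its limma adjusted p was 0.566 for KU-0063794 and 0.795 for rapamycin. Xcl1 (probe set 1419412_at), which encodes lymphotactin, was between 0.25 and 0.27 log2 with KU-0063794, between 0.25 and 0.54 with rapamycin, and at 0.25 on all 3 DMSO arrays. Ccl9, a mouse CC chemokine known mainly from myeloid cells, lay between 0.08 and 0.34 log2 with KU-0063794, between −0.13 and 0.01 with rapamycin and between 0.06 and 0.26 with DMSO on its brighter probe set. Xcl1 and Ccl9 were below the background level on all 9 arrays and their means were below the signal filter of 0.31 log2, so they were not tested. Signals at this level do not show whether the mRNA was absent. In RefSeq (GRCm38.p6) Ccl3 and Ccl4 are neighbouring genes on chromosome 11, and so are Ccl5 and Ccl9; in each pair only 1 gene lay above background on all 9 arrays.

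Cxcr3 (probe set 1449925_at) encodes the receptor for CXCL9, CXCL10 and CXCL11 on effector T cells. Its signal was 5.16, 5.77 and 5.32 log2 in spleens 1, 2 and 3 with KU-0063794, 4.69, 5.70 and 5.10 with rapamycin, and 2.52, 4.61 and 4.12 with DMSO. The groups did not overlap between either inhibitor and DMSO, though the lowest rapamycin array was close to the highest DMSO array, and spleen 1 was lowest under all 3 treatments. Means were 5.42 ± 0.31 with KU-0063794, 5.16 ± 0.50 with rapamycin and 3.75 ± 1.10 with DMSO (SD, n = 3 each). The log2 fold change was 1.66 with KU-0063794 and 1.41 with rapamycin. Without the DMSO array of spleen 1 these values were 1.05 and 0.80. Without the block neither was called (SE 0.47, limma adjusted p = 0.0927 for KU-0063794 and 0.145 for rapamycin). With the replicate block Cxcr3 rose with both (SE 0.27, limma adjusted p = 0.00812 for KU-0063794 and 0.0154 for rapamycin), and both calls held with the random block (0.0230 and 0.0425). Within spleens 1, 2 and 3 the difference from DMSO was 2.64, 1.15 and 1.20 with KU-0063794 and 2.18, 1.08 and 0.98 with rapamycin. Spleen 1, with the lowest DMSO signal, gave the largest difference for both inhibitors. Without the whole of spleen 1 the log2 fold change was 1.18 for KU-0063794 and 1.03 for rapamycin. With the block the KU-0063794 call held without any one array and without spleen 1, and was lost without spleen 2 or 3, and the rapamycin call was lost without any one rapamycin array (adjusted p up to 0.0831) or any whole spleen.

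Cxcr4 (probe set 1448710_at) encodes the receptor for CXCL12. Its signal was 1.58, 2.59 and 2.39 log2 in spleens 1, 2 and 3 with KU-0063794, 1.80, 2.45 and 2.21 with rapamycin, and 0.90, 2.18 and 1.03 with DMSO. All 6 inhibitor arrays were above background against 1 of 3 DMSO arrays, that of spleen 2, which overlapped the inhibitor arrays. As for Cxcr3, spleen 1 was lowest under all 3 treatments, and spleen 2 was highest. Because the DMSO arrays of spleens 1 and 3 were below background, the size of the difference from DMSO is not well determined. The log2 fold change was 0.81 with KU-0063794 and 0.78 with rapamycin, higher in 3 of 3 spleens for each, with differences between 0.27 and 1.36. Without the block neither was called (SE 0.36, limma adjusted p = 0.272 for KU-0063794 and 0.300 for rapamycin). Both rose with the replicate block (SE 0.18, limma adjusted p = 0.0260 for KU-0063794 and 0.0304 for rapamycin). With the spleen as a random block, its correlation being estimated over all genes, neither was called (SE 0.28, limma adjusted p = 0.0997 and 0.117). With the block, leaving out the DMSO array of spleen 1 or 3 ended both calls, as did any KU-0063794 array for KU-0063794 and the rapamycin array of spleen 1 or 3 for rapamycin, with adjusted p up to 0.109 for KU-0063794 and 0.136 for rapamycin. Leaving out any whole spleen ended the rapamycin call in that fit, and the KU-0063794 call held for 1 of the 3 spleens left out.

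Cxcr6 encodes the receptor for CXCL16 and is known from effector and tissue-resident CD8 T cells. Its brighter probe set, 1425832_a_at, gave 7.98, 7.77 and 8.18 log2 in spleens 1, 2 and 3 with KU-0063794, 8.15, 7.84 and 8.26 with rapamycin, and 8.44, 8.20 and 8.52 with DMSO. The order was the same in every spleen, with KU-0063794 lowest, rapamycin between and DMSO highest, while across spleens the rapamycin and DMSO arrays overlapped. The differences from DMSO were small and even, −0.46, −0.43 and −0.34 with KU-0063794 and −0.29, −0.36 and −0.26 with rapamycin. As a mean, Cxcr6 was 1.33-fold lower with KU-0063794 (log2 fold change −0.41) and 1.23-fold lower with rapamycin (−0.30). Without the block neither was called (SE 0.14, limma adjusted p = 0.163 for KU-0063794 and 0.311 for rapamycin). Both fell with the replicate block (SE 0.07, limma adjusted p = 0.00795 for KU-0063794 and 0.0237 for rapamycin). With the random block the KU-0063794 call held (limma adjusted p = 0.0423) and the rapamycin call was lost (0.117). In the fit with the spleen as a fixed replicate block the KU-0063794 call held without any one array but not without any whole spleen, and the rapamycin call was lost without any one DMSO or rapamycin array (adjusted p up to 0.0984). The other probe set, 1422812_at, gave 7.24, 7.11 and 7.29 log2 with KU-0063794, 7.45, 7.23 and 7.38 with rapamycin, and 7.68, 7.47 and 7.68 with DMSO, in the same order in every spleen. In a limma fit of all 22947 probe sets with the block it passed for KU-0063794 (adjusted p = 0.0120) and not for rapamycin (adjusted p = 0.0607).

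Ccr2 encodes the receptor for CCL2. Its brightest probe set, 1421186_at, was at 5.13, 5.45 and 5.35 log2 in spleens 1, 2 and 3 with KU-0063794, 5.82, 5.43 and 5.57 with rapamycin, and 5.50, 5.98 and 5.74 with DMSO. KU-0063794 lay below DMSO in all 3 spleens and no KU-0063794 array reached the lowest DMSO array, but the rapamycin arrays overlapped both. The log2 fold change was −0.43 with KU-0063794 (95% interval −0.76 to −0.10, limma adjusted p = 0.148, and 0.111 with the replicate block). For rapamycin it was −0.13 (95% interval −0.46 to 0.20, limma adjusted p = 0.706). Of the 3 other probe sets, 1421187_at and 1421188_at were also lower with KU-0063794 in 3 of 3 spleens, with mean differences of −0.54 and −0.35, while 1460067_at differed by 0.05. The last 2 were near or below background, 1421188_at being above it on 0 KU-0063794, 0 rapamycin and 1 DMSO array. No Ccr2 probe set passed in the fit of all probe sets without or with the block, the lowest adjusted p for KU-0063794 being 0.0752, with it, for 1421188_at.

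**Figure D2:**
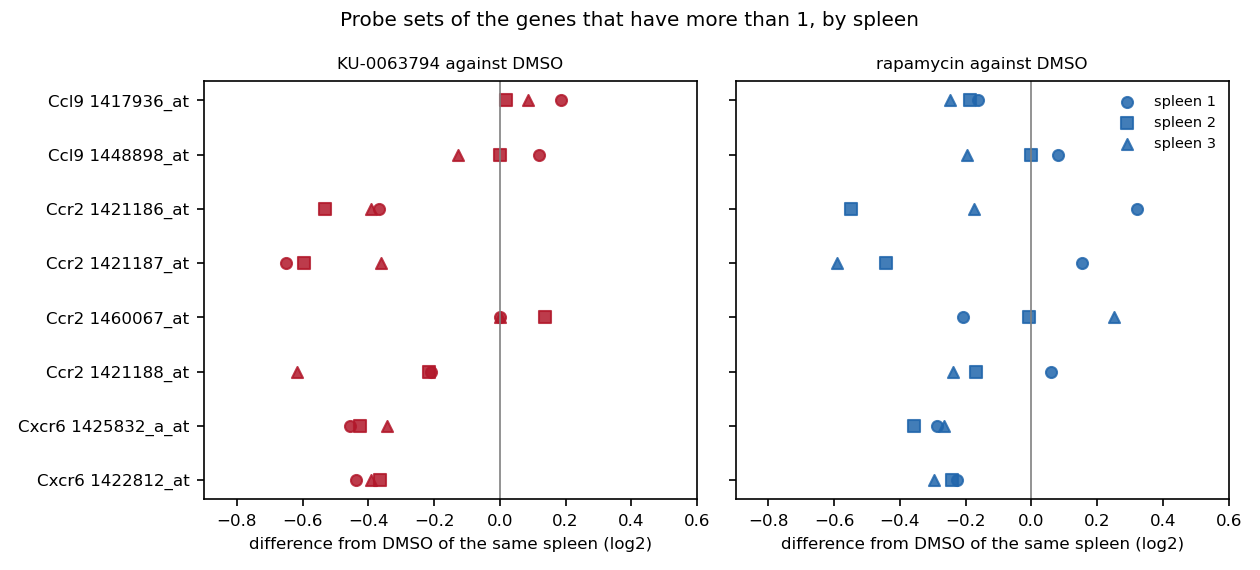
Difference from the DMSO array of the same spleen (log2, x axis) for each probe set of the 3 genes that have more than 1, with KU-0063794 at left and rapamycin at right. Each point is a spleen. Both Cxcr6 probe sets lie left of 0 in all 3 spleens with both inhibitors, and 3 of 4 Ccr2 probe sets do so with KU-0063794 alone, while rapamycin put the same 3 Ccr2 probe sets on the right of 0 in spleen 1.

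The comparison of the inhibitors with each other asks in which genes the kinase inhibitor differed from rapamycin. None of the 7 genes was called with KU-0063794 against rapamycin by limma, beside 0% of all genes, without or with the block. At an unadjusted p below 0.05 there was 1 of 7, Ccl5, beside 629 of 13278 genes. Ccl5 was lower with KU-0063794 than with rapamycin in 3 of 3 spleens, with log2 differences of −0.93, −0.36 and −0.74 and a mean of −0.68 (95% interval −1.05 to −0.30, unadjusted p = 0.00249, limma adjusted p = 0.933, and 0.333 with the replicate block). For Ccl4 the difference was 0.04 with a 95% interval of −0.53 to 0.61. The intervals were −0.81 to 1.32 for Cxcr3 and −0.78 to 0.85 for Cxcr4 and left room for a difference of either sign. The Ccr2 difference of −0.30 (95% interval −0.63 to 0.03) and the Cxcr6 difference of −0.10 (−0.43 to 0.22) also included 0. With the replicate block the Cxcr6 interval narrowed to −0.26 to 0.05, although KU-0063794 was the lower of the pair in 3 of 3 spleens.

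**Figure D3:**
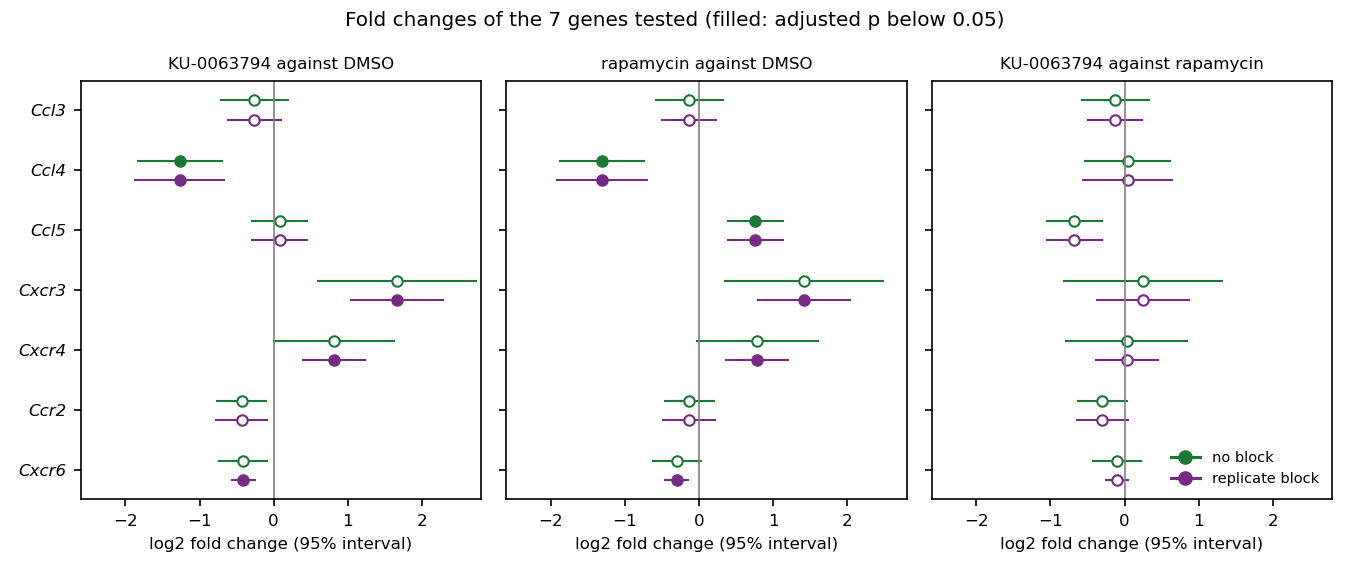
Log2 fold changes of the 7 tested genes with 95% intervals (x axis) for the 3 comparisons, each gene without (upper, green) and with (lower, purple) the spleen as a replicate block. Filled points have an adjusted p below 0.05 over all genes tested. The block narrows the intervals of Cxcr3, Cxcr4, Cxcr6 and Ccl3, widens those of Ccl4 and Ccr2 slightly, and no point is filled for KU-0063794 against rapamycin.

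The spread between spleens was not alike across the genes. Over the 9 arrays Cxcr3 and Cxcr4 correlated at r = 0.86, and their deviations from the group means at r = 0.74. Cxcr6 ran against both, at r = −0.79 with Cxcr3 and −0.75 with Cxcr4 over the 9 arrays, and at −0.51 and −0.55 for the deviations. The chemokines Ccl4 and Ccl5 correlated at r = −0.53, and at −0.26 for the deviations. Ccl3, near background, correlated with Cxcr4 at r = 0.41, and at 0.92 for the deviations, more than Cxcr3 did with Cxcr4. These are descriptions over 9 arrays that share 3 spleens and 3 treatments. Among 8483 tested genes above background, those most like Cxcr3 over the 9 arrays were Siva1 (r = 0.99), Sp1 (0.98), a transcription factor, and Lbr (0.98), the lamin B receptor. Those most like Cxcr4 were Eif4ebp2 (0.96), a translation repressor acting on eIF4E, Cst7 (0.95), which encodes cystatin F, and Rnmt (0.95), the mRNA cap methyltransferase. For Cxcr6 they were Tax1bp3 (0.98), Tnf (0.98), the cytokine, and Lgals3 (0.98), galectin 3, whose own log2 fold changes were larger, at −1.48 with KU-0063794 and −1.14 with rapamycin. Ccl4 was most like Vps36 (0.96), Cog6 (0.96) and Nfe2l1 (0.95), and Ccl5 most like Gdap10 (0.98), Tm9sf3 (0.94) and Myo9b (0.92).

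Outside the 9 genes, the ligands of the chemokine system gave almost no signal. Of 32 other chemokine ligands, 30 were on the array and 16 were tested, and the only group mean above background was that of Cx3cl1 with KU-0063794, at 1.33 log2, beside 1.25 with rapamycin and 1.29 with DMSO. None of the 16 was called in any comparison. Of 19 other receptors, 17 were on the array and 9 were tested, of which Ccr7 and Cxcr2 lay above background. Cxcr2, known as a neutrophil receptor, had means of 3.16 log2 with KU-0063794, 2.64 with rapamycin and 2.77 with DMSO and was not called. Ccr7, the lymph node homing receptor, was at 3.16, 3.58 and 3.78 log2 in spleens 1, 2 and 3 with KU-0063794, 3.74, 4.02 and 4.37 with rapamycin, and 2.61, 3.54 and 3.21 with DMSO. It was higher with both inhibitors in 3 of 3 spleens, and with rapamycin no array overlapped DMSO. With the replicate block Ccr7 rose with rapamycin (log2 fold change 0.93, limma adjusted p = 0.00585, against 0.0776 without the block), and its change with KU-0063794 was 0.39 (limma adjusted p = 0.105 with the block).

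Downstream of the receptors, 33 of 36 listed signalling genes were tested, 31 of them above background. Without the block 1 was higher and 2 were lower with KU-0063794, and 1 was higher and 1 lower with rapamycin. Under the block 2 were higher and 4 lower with KU-0063794, and 1 higher and 2 lower with rapamycin, of 33 genes each, beside 12.4% and 11.8% of all genes. Over the 3 lists together 3 of 58 were called with KU-0063794, 2 with rapamycin and 0 for KU-0063794 against rapamycin. The calls were 5.17% and 3.45% of the 58 for KU-0063794 and rapamycin, near the 4.07% and 4.44% of all genes. For KU-0063794 against rapamycin 7 of 58 had an unadjusted p below 0.05, beside 629 of 13278 genes. With the block the counts were 6, 4 and 0 of 58, beside 12.4%, 11.8% and 0% of all genes, and 12 of 58 had an unadjusted p below 0.05 for KU-0063794 against rapamycin, beside 1329 of 13278. Grk6, a kinase that desensitises chemokine receptors, rose to 7.09, 7.10 and 6.96 log2 in spleens 1, 2 and 3 with KU-0063794 and 7.24, 7.09 and 7.08 with rapamycin, against 6.69, 6.61 and 6.68 with DMSO. No inhibitor array overlapped DMSO (log2 fold change 0.39 with KU-0063794, limma adjusted p = 0.0291, and 0.47 with rapamycin, 0.0148; SE 0.08), and all 3 Grk6 probe sets were higher with both. Arrb1, beta-arrestin 1, which uncouples and internalises the receptors, was at 1.54, 1.11 and 0.70 log2 with KU-0063794, 1.84, 2.01 and 2.14 with rapamycin, and 3.22, 2.46 and 2.10 with DMSO. It fell with KU-0063794 (log2 fold change −1.48, SE 0.28, limma adjusted p = 0.0234), where 1 of 3 arrays was above background and the mean of 1.12 log2 was below it, so the size of the difference is not well determined, while the rapamycin change was −0.59 (limma adjusted p = 0.310). The direct comparison of KU-0063794 with rapamycin for Arrb1 gave −0.88 (95% interval −1.51 to −0.25, limma adjusted p = 0.933).

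Pik3r6, a regulatory subunit of the PI3K gamma that acts behind these receptors, fell with both inhibitors close to background. It was at 1.17, 1.34 and 1.08 log2 with KU-0063794, 1.34, 1.39 and 1.08 with rapamycin, and 1.84, 1.60 and 1.88 with DMSO (log2 fold change −0.58, limma adjusted p = 0.0288, and −0.50, 0.0442). The means of 1.20 with KU-0063794 and 1.27 with rapamycin were below background, so these sizes are not well determined either. Rap1b, a small GTPase of integrin activation, averaged 8.51 ± 0.08 log2 with KU-0063794, 8.52 ± 0.07 with rapamycin and 8.84 ± 0.06 with DMSO (SD, n = 3 each). It fell with both when the replicate block was in the fit (log2 fold change −0.33, limma adjusted p = 0.0205 with KU-0063794, and −0.32, 0.0236 with rapamycin), and not without it (0.0535 and 0.0581). These values are from its brightest probe set. Its dimmest, with a mean of 5.45 log2, hardly changed, by −0.04 with each inhibitor. The remaining probe set, with a mean of 7.49 log2, differed by −0.52 with KU-0063794 and −0.49 with rapamycin. Rassf5, a RAP1 effector, rose with KU-0063794 with the block alone (0.29, limma adjusted p = 0.0393, against 0.281 without it). Gng2, a G protein gamma subunit, fell likewise (−0.44, limma adjusted p = 0.0157, against 0.170), but 2 of its 3 other probe sets moved the other way, by 0.07 each.

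**Figure D4:**
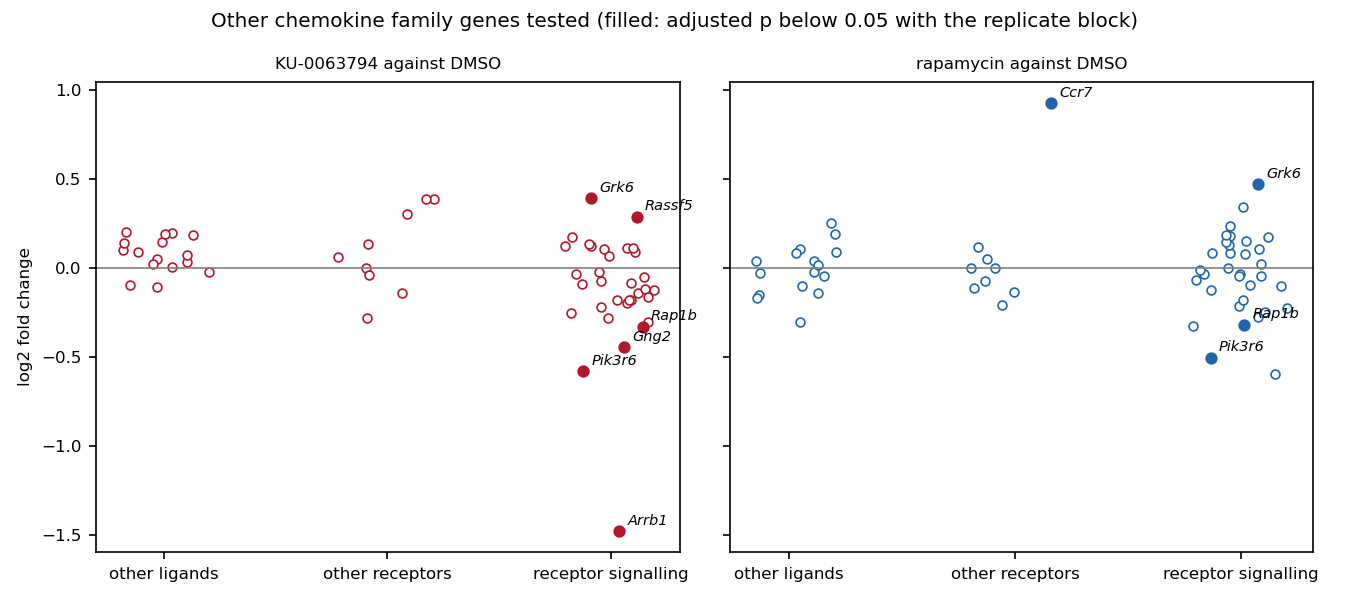
Log2 fold change (y axis) of the 58 other tested genes of the chemokine system with KU-0063794 (left) and rapamycin (right) against DMSO, by list. Each point is a gene, spread sideways for legibility, and filled, named points passed with the replicate block. The ligands lie between −0.30 and 0.25 and none is filled; Ccr7 is the 1 filled receptor, with rapamycin.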

How the data were processed

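The deposited values are log2 signals per probe set of 1 Affymetrix mouse array per culture. The authors made them with Affymetrix Expression Console 1.3.1, per the submitters' processing notes; which background correction, summary and normalization it ran is not given in the sources used here. That the scale is log2 was checked on spiked hybridisation controls, whose signal rose by 1.04 per doubling of the nominal amount. Array medians were 0.47 to 0.53 log2, and the values were used as deposited. Symbols come from the array's GEO annotation, which can be old. Of 45101 probe sets, 34945 had 1 symbol (34741 matched RefSeq by gene identifier), and the 932 with several, the 9160 not listed and the 64 controls were not used as genes.

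Each gene was represented by its probe set of highest mean over the 9 arrays and tested where that mean passed the 40th percentile (0.31 log2). limma 3.58.1 in R 4.3.3 (lmFit, eBayes, two-sided) fitted the 3 groups over all 9 arrays, with Benjamini-Hochberg adjustment over the 13278 genes and a threshold of 0.05. The number of arrays, 3 per group, limits the precision. By the series' design text same-numbered arrays share a spleen, and their deviations from the group means correlated across genes (r 0.345 to 0.533 in 9 pairs). In 18 pairs of different number r was −0.414 to −0.0791. Because deviations cancel within each group, this second range follows in part from the first and is not separate evidence. Values with the spleen as a replicate block are given where they change a call. The procedure was run on simulated data with set shifts added to some genes, which checked only that the size of the shifts was recovered.

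The members, the gene lists and the tests were chosen with earlier results of these data known. Named genes are all 9 members, the genes of the 3 other chemokine lists called in any comparison without or with the block and above background, and the 3 tested genes most correlated with each called member. List genes that are not on the array, or not under 1 symbol, are not reported here. Alternatives covered fixed and random blocks, fits of 2 groups, filters, probe set rules, scaling and left-out arrays and spleens. Combinations of the block with left-out arrays, other filters, the mean of probe sets and median centring were added after seeing the data.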

Additional observations from a re-analysis of the deposited data

How the results depend on the processing

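Under 12 settings (10 for Ccl3, which 2 stricter filters removed) other than replicate blocks and left-out arrays or spleens, Ccl4 was called in 11 for each inhibitor and Ccl5 with rapamycin in 11, and none of the 7 genes changed sign against DMSO. The exception was the fit of only the 2 groups compared, which called 0 members and 0 other chemokine genes for each inhibitor, against 1 member and 3 others with KU-0063794 and 2 and 2 with rapamycin when all 9 arrays were fitted. The share of all genes called was computed only for the main fit and the fit with the replicate block. Counts under the other settings, here and below, therefore cannot be set against such a share. With the replicate block the counts were 4 members and 6 others with KU-0063794 and 5 and 4 with rapamycin; with a random replicate block they were 3 members and 6 others with KU-0063794 and 3 and 4 with rapamycin, Cxcr4 being lost for both inhibitors and Cxcr6 for rapamycin. The other chemokine genes called with rapamycin were 1 with median centring, no filter or every probe set tested, and 0 with the mean of all probe sets, which gave 1 with KU-0063794.

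Settings that joined the replicate block to another choice were chosen after seeing the data. They gave 4 members with KU-0063794 and 5 with rapamycin for no filter, a filter at the background level and median centring, and 5 for both inhibitors with the mean of probe sets. The other chemokine genes were 6, 9, 6 and 5 with KU-0063794 and 4, 6, 4 and 4 with rapamycin for no filter, the background filter, the mean of probe sets and median centring. Leaving out 1 array or 1 spleen gave 0 to 1 members and 0 to 3 others with KU-0063794 and 0 to 2 and 0 to 3 with rapamycin, and with the replicate block 1 to 5 and 0 to 7 with KU-0063794 and 0 to 5 and 0 to 6 with rapamycin. KU-0063794 against rapamycin gave 0 calls under every setting run. Signals below 1.30 log2 cannot be told from background on these arrays, which limits Ccl3, Ccl9, Xcl1, the dimmer Ccr2 probe sets, the DMSO level of Cxcr4, Arrb1 with KU-0063794, and Pik3r6 with both inhibitors.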
